A study of Mus musculus with 8 samples.

Results

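The 10 genes described here encode neuropeptide precursors that are not among the usual markers of interneurons: Penk, Pdyn, Tac1, Tac2, Adcyap1, Nts, Cartpt, Pomc, Avp and Oxt. They were chosen by gene symbol from the 19201 genes of an RNA-seq table of the mouse hippocampus, and all 10 were found in it. The table compared wild-type C57BL/6 mice, labelled as controls, with Mbd2-/- mice, which lack the methyl-CpG binding protein MBD2 in every cell. Each genotype had 4 libraries, each library was made from the pooled hippocampi of 2 mice aged 10 to 12 weeks, and no agent was given to either group. The animals were littermates from heterozygous parents, and the line still transcribes exon 1 of Mbd2. Ribosomal RNA was depleted from total RNA, and sequencing gave paired reads of 100 bases.

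Neuropeptides are cut from larger precursor proteins inside dense-core granules, released with activity and sensed almost always by G protein-coupled receptors. In the hippocampus, dynorphin and enkephalin are stored in granule cells of the dentate gyrus and their mossy fibres, where they dampen transmission, while the tachykinins substance P and neurokinin B act on neurons that carry their receptors. Vasopressin, oxytocin and the melanocortins are made mainly by hypothalamic and pituitary cells, so that their mRNAs in a hippocampal sample also bear on tissue carried along in dissection.

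A library held between 8087750 and 23790825 reads on genes. Values are normalized counts, which are reads on a gene divided by the size factor of the library, and the spread is the SD over 4 libraries. Mbd2 itself was 346 ± 34.4 in wild-type and 260 ± 54.3 in Mbd2-/- libraries, a log2 fold change of -0.43 (limma, adjusted p = 0.0174), and the genotypes overlapped in range. This call ended without the trend and robust moderation of limma (adjusted p = 0.0731) and when 1 of 3 libraries was left out, namely Mbd2-/- replicate 1 (0.0539), Mbd2-/- replicate 2 (0.0576) or wild-type replicate 3 (0.0624). Genes were tested with limma on log2(normalized count + 1) where their mean was at least 10, and a gene was called where its p, adjusted after Benjamini and Hochberg over all 14504 tested genes, was under 0.05. A log2 fold change is Mbd2-/- over wild-type on that scale, and it understates the change of genes with few reads. In Mbd2-/- libraries the deviation of a gene from the wild-type mean fell with the length of its longest transcript, with a Spearman's rho across genes of -0.49, -0.43, -0.48 and -0.10 for replicates 1 to 4, against -0.07 to 0.06 in wild-type libraries. The precursors are short, with a median of 1105 bases for the tested members against 3187 bases for all tested genes. The tests of the members and of the gene lists were therefore also run with this length trend removed, whereas levels and summed marker counts are given as they are.

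Of the 10 precursor genes, 8 passed the filter on low values and were tested, while Avp and Oxt did not pass it. Pdyn and Tac1 rose in Mbd2-/- hippocampus and Cartpt fell. Penk, Tac2, Adcyap1, Nts and Pomc did not pass the test. Thus 3 of 8 tested members were called, 2 higher and 1 lower, where 22.0% of all tested genes were called, 12.0% higher and 10.0% lower. With the length trend removed, 3 members were called as well, but 1 was higher (Pdyn) and 2 were lower (Cartpt and Tac2), where 14.8% of 14186 genes were called in that fit, 8.05% higher and 6.77% lower. The libraries of the genotypes did not overlap for Pdyn, Tac1 and Cartpt, against 23.6% of all tested genes. The median log2 fold change of the 8 members was 0.04. With 8 genes, these counts describe the members and do not set them apart from the rest of the table.

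The sequences just upstream of the 3 called genes are shown because MBD2 binds methylated CpG sites and because cAMP and neuronal activity act on several peptide genes through a cAMP response element (CRE). The 250 bases before the start site come from RefSeq on GRCm38.p6, printed along the strand of the gene, with every CRE (TGACGTCA) or core CRE motif (TGACG) on either strand in capitals. They are chr13:99900684-99900933 (minus strand) for Cartpt, chr6:7554811-7555060 (plus strand) for Tac1 and chr2:129699939-129700188 (minus strand) for the first of 2 listed start sites of Pdyn.
Cartpt: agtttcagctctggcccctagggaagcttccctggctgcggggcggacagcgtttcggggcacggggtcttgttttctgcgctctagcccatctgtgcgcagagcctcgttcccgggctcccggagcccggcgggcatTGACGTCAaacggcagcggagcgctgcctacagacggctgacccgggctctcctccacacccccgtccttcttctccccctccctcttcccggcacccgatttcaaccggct
Tac1: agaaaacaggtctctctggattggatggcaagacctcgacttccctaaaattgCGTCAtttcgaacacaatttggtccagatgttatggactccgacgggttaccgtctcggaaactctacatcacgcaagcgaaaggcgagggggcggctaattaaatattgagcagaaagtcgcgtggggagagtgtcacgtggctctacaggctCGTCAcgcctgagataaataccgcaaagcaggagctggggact
Pdyn: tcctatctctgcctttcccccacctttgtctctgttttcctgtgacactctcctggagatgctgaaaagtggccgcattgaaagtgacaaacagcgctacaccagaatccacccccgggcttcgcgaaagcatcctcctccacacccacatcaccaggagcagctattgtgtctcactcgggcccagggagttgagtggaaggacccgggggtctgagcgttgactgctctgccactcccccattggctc

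Cartpt held a full CRE that began 112 bases before the start site, and its window had 22 CpG sites, a count at the 86.7th percentile of all windows. A full CRE was present in 1.55% of 32851 such windows. Tac1 held 2 core CRE motifs, beginning 197 and 43 bases before the start, and 17 CpG sites. The core motif, which also lies inside every full one, occurred in 17.8% of windows. The Pdyn window held neither motif and 8 CpG sites, that of the other Pdyn start site held neither motif and 4, and the median of all windows was 6 CpG sites. Among the other members with a window, Adcyap1 had a core motif in both of its overlapping windows, which is 1 site seen from 2 start sites. Nts had a core motif and an AP-1 motif (TGACTCA or TGAGTCA, in 4.46% of windows), and Tac2, Pomc, Avp and Oxt held none of these letters. The upstream sequence of Penk was not analysed here. Methylation and binding at these windows were not measured in the data used here.

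**Figure D1:**
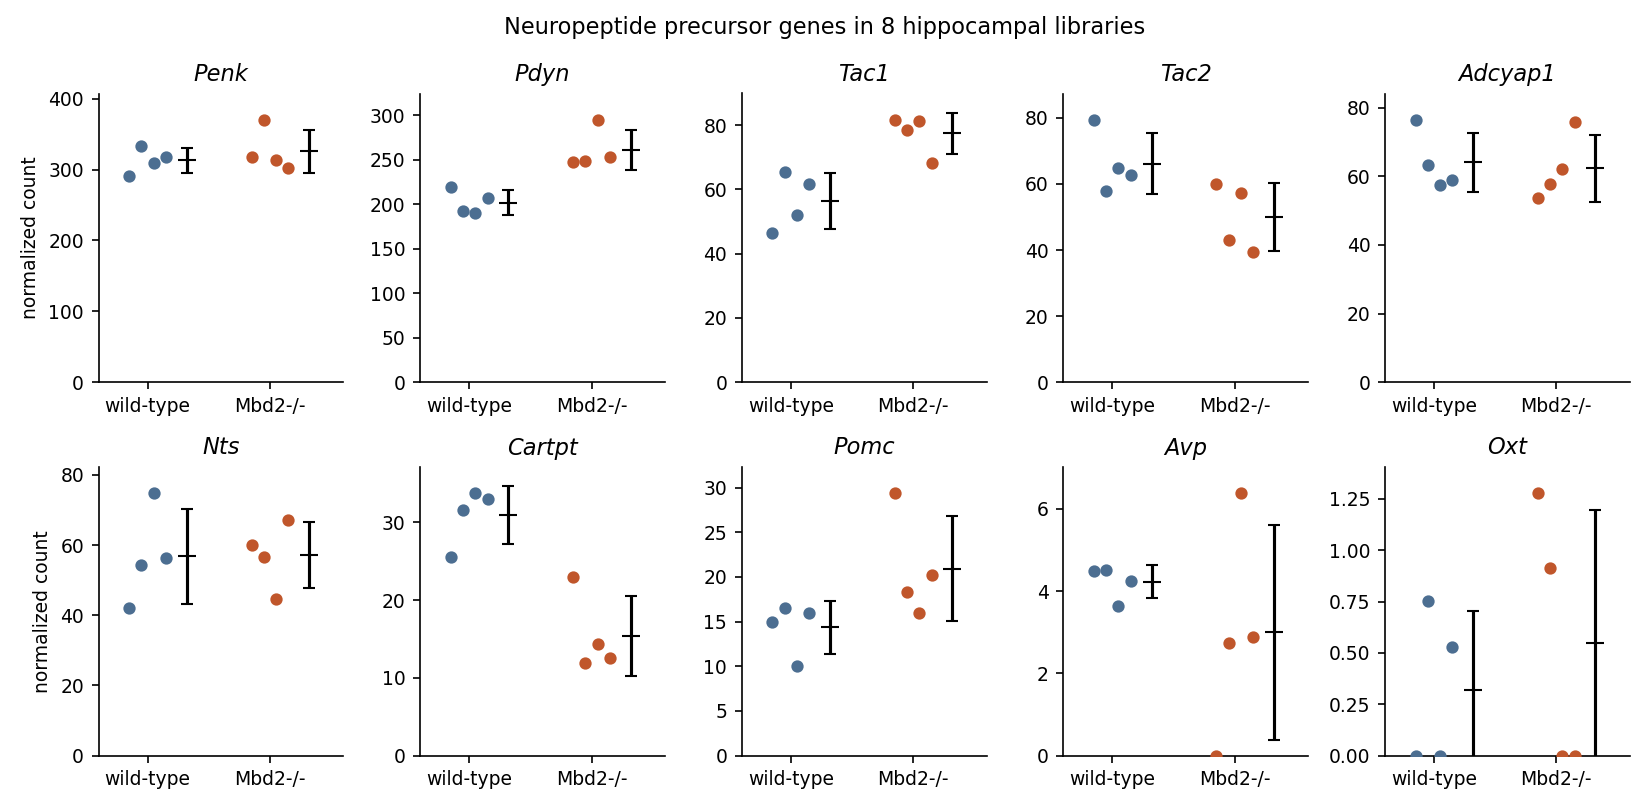
Normalized counts of the 10 precursor genes in each library (vertical axis from 0, a separate scale for each gene), with points for the 4 wild-type and 4 Mbd2-/- libraries and the mean and SD beside them. The genotypes are fully separated for Pdyn, Tac1 and Cartpt, and overlap for the other 7 genes.

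Among the opioid precursors, Pdyn encodes prodynorphin, the source of the dynorphins that act on kappa receptors. It lies at chr2:129512301-129525580 on the minus strand (mm9). Its normalized counts were 218.8, 191.9, 189.6 and 207.1 in wild-type replicates 1 to 4 and 247.7, 248.7, 294.9 and 252.7 in Mbd2-/- replicates 1 to 4. Every Mbd2-/- library was above every wild-type library, and Mbd2-/- replicate 3 was the highest. The means were 201.9 ± 13.7 and 261 ± 22.7 (SD, n = 4 each), a rise of 29.3%. The log2 fold change was 0.37 (95% interval 0.19 to 0.55, limma, adjusted p = 0.00626), and an exact permutation test gave p = 0.0286, the smallest that 4 against 4 libraries allow. Pdyn was called in all 12 alternatives on all libraries and whichever library was left out, with log2 fold changes from 0.31 to 0.41, and with the length trend removed it was 0.31 (adjusted p = 0.0152). In bulk tissue, more cells of a type and more RNA per cell cannot be told apart.

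The markers of the dentate gyrus, where granule cells make dynorphin, had summed normalized counts of 8426 to 8572 in wild-type and 8449 to 8713 in Mbd2-/- libraries. Of these 9 genes, 4 were higher, 1 was lower and 4 were not called, where 12.0% of all tested genes were higher and 10.0% lower. The higher ones were Tdo2 (log2 fold change 0.50), Plk5 (0.35), Trpc6 (0.28) and Glis3 (0.26), and the lower one was Prox1 (-0.20), the granule cell factor. The median of the list was 0.17, and the same counts were found with the length trend removed. In that fit 8.05% of all genes were higher and 6.77% lower. The part of these cells in the values of Pdyn was not tested.

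Penk encodes proenkephalin, the precursor of the enkephalins, and lies at chr4:4060678-4065966 on the minus strand. Its normalized counts were 290.8, 333.3, 309.9 and 317.6 in wild-type and 318, 370.4, 314 and 301.7 in Mbd2-/- libraries. The ranges overlapped, and the highest value was that of Mbd2-/- replicate 2. The means were 312.9 ± 17.7 and 326 ± 30.4, with a log2 fold change of 0.06 (95% interval -0.11 to 0.22, limma, adjusted p = 0.65). The interval holds changes of either sign. The gene A830012C17Rik overlaps Penk on the other strand, and the strand used in counting is not given in the sources used here, so reads of these 2 genes cannot be told apart. Whether the changes of Pdyn and Penk differ was not tested.

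Tac1 encodes the precursor of substance P and neurokinin A and lies at chr6:7505071-7512973 on the plus strand. Wild-type normalized counts were 46.5, 65.5, 52 and 61.6, and Mbd2-/- counts were 81.7, 78.7, 81.3 and 68.2. The ranges did not overlap, although Mbd2-/- replicate 4 was close to wild-type replicate 2. The mean rose by 37.4%, from 56.4 ± 8.71 to 77.5 ± 6.31, with a log2 fold change of 0.46 (95% interval 0.17 to 0.75, limma, adjusted p = 0.0246) and an exact permutation p of 0.0286. The call ended with the length trend removed, where the log2 fold change was 0.21 (adjusted p = 0.314), and with DESeq2 on the recovered reads (0.42, adjusted p = 0.0631). It also ended without wild-type replicate 1 or 3 or without Mbd2-/- replicate 1 or 2, where limma gave adjusted p values of 0.0798, 0.0736, 0.0693 and 0.0643. The direction stayed the same in all of these fits.

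Tac2, the other tachykinin precursor, encodes neurokinin B in the mouse and lies at chr10:127162448-127168823 on the plus strand. Its normalized counts were 79.4, 57.9, 64.7 and 62.7 in wild-type and 60, 43, 57.4 and 39.4 in Mbd2-/- libraries. The ranges overlapped because Mbd2-/- replicate 1 lay above wild-type replicate 2. The means were 66.2 ± 9.28 and 49.9 ± 10.3, with a log2 fold change of -0.41 (95% interval -0.75 to -0.07, limma, adjusted p = 0.077) and an exact permutation p of 0.0571. With the length trend removed the log2 fold change was -0.73 and passed the test (limma, adjusted p = 0.00326), and it also passed without Mbd2-/- replicate 3 (-0.49, adjusted p = 0.0466). Tac2 has the shortest transcript of the tested members, 680 bases. Neurokinin B and substance P are both made in the medial habenula, a region near the dorsal hippocampus. Habenula markers fell in 5 of 7 genes, where 10.0% of all tested genes were lower, and the 2 others, Chrnb4 and Chrnb3, were not called. The summed normalized counts of the list were 1086 to 1187 in wild-type and 747 to 830.3 in Mbd2-/- libraries. Most of that sum was Nwd2 (719.2 ± 36.4 in wild-type and 533.2 ± 23.9 in Mbd2-/- libraries). The part of these markers in the values of Tac2 and Tac1 was not tested.

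**Figure D2:**
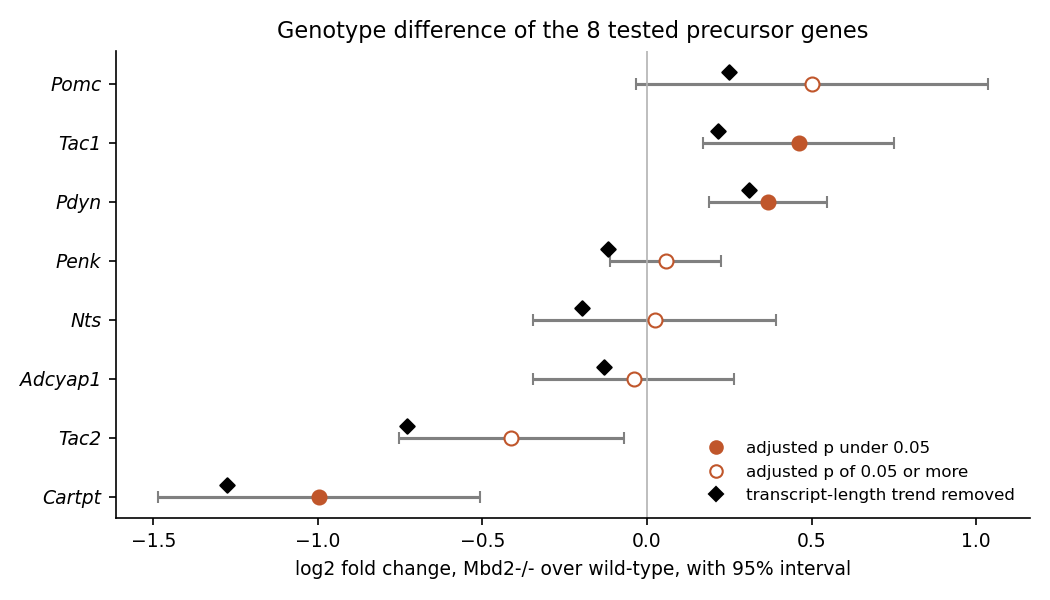
Log2 fold changes (horizontal axis, Mbd2-/- over wild-type) of the 8 tested precursor genes with their 95% intervals from limma, filled where the adjusted p was under 0.05, with diamonds for the fit with the transcript-length trend removed. Removing the trend moves each gene to the left, by the least for Pdyn, takes Tac1 from 0.46 to 0.21 and Tac2 from -0.41 to -0.73.

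Cartpt encodes the CART peptides, which act in feeding, reward and stress, and lies at chr13:100668439-100670638 on the minus strand. Its normalized counts were 25.5, 31.6, 33.7 and 32.9 in wild-type and 23, 11.9, 14.4 and 12.5 in Mbd2-/- libraries. The ranges did not overlap, but Mbd2-/- replicate 1 stood close to wild-type replicate 1 and apart from the other Mbd2-/- libraries. These values rest on 17, 42, 37 and 62 reads in wild-type and on 18, 13, 9 and 13 reads in Mbd2-/- libraries. The mean fell by 50.1%, from 30.9 ± 3.74 to 15.4 ± 5.15, with a log2 fold change of -0.998 (95% interval -1.49 to -0.51, limma, adjusted p = 0.00642) and an exact permutation p of 0.0286. Cartpt was called in all 11 alternatives that tested it and whichever library was left out, with log2 fold changes from -1.28 to -0.84.

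Adcyap1 encodes PACAP, a peptide of the VIP family, and Nts encodes neurotensin. Adcyap1 had normalized counts of 76.4, 63.2, 57.4 and 59 in wild-type and 53.6, 57.6, 62.2 and 75.9 in Mbd2-/- libraries. Wild-type replicate 1 and Mbd2-/- replicate 4 were the highest, and the ranges of the genotypes overlapped. Its log2 fold change was -0.04 (95% interval -0.35 to 0.26, limma, adjusted p = 0.87). For Nts the normalized counts were 42, 54.2, 74.8 and 56.3 in wild-type and 60, 56.7, 44.6 and 67.3 in Mbd2-/- libraries. Here the lowest and the highest library were both wild-type. The log2 fold change of Nts was 0.02 (95% interval -0.35 to 0.39, limma, adjusted p = 0.942). The sign of either gene turned under other settings, and the intervals leave room for changes of up to about the size seen for Pdyn.

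Pomc encodes the precursor of ACTH, the melanocortins and beta-endorphin. Its normalized counts were 15, 16.6, 10 and 15.9 in wild-type and 29.4, 18.3, 15.9 and 20.2 in Mbd2-/- libraries, from 10 to 30 reads each. Mbd2-/- replicate 1 was the highest, and Mbd2-/- replicate 3 fell inside the wild-type range. The log2 fold change was 0.50 (95% interval -0.03 to 1.04, limma, adjusted p = 0.167), with an exact permutation p of 0.0571. Avp and Oxt, which encode vasopressin and oxytocin, were near the limit of detection. Avp had 3, 6, 4 and 8 reads in wild-type and 0, 3, 4 and 3 in Mbd2-/- libraries, and Oxt had 4 reads in all 8 libraries together, at most 1 in any. The 0 reads of Avp in Mbd2-/- replicate 1 allow up to 3.83 normalized counts there. Exact permutation tests gave p = 0.314 for Avp and p = 0.657 for Oxt, and a difference between genotypes was not detectable at this depth. Such a limit covers counting error only.

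The 12 hypothalamus markers in the table, which include Hcrt, Pmch, Agrp and Nkx2-1, also had few reads. None passed the filter, no gene had more than 12 reads in any library, and none was at 0 in every library. Their summed normalized counts were 15 to 26.3 in wild-type and 10.2 to 22.1 in Mbd2-/- libraries, so the genotypes overlapped. Markers of some other neighbouring tissues did move, where 12.0% of all tested genes were higher and 10.0% lower. Choroid plexus markers were higher for all 14 genes (summed counts of 24331 to 26066 against 47069 to 53505), and thalamus markers were lower for 8 of 9 genes (3834 to 3935 against 2458 to 2782). Among 8 tested striatum markers Ppp1r1b was higher and Drd2 lower, near the 22.0% of all tested genes called. The list overlapped in its sum (1035 to 1082 against 991.7 to 1251). Most of that sum was Ppp1r1b, and without this gene, left out after its values were seen, the sums were 483.3 to 509.6 in wild-type and 377.8 to 452.7 in Mbd2-/- libraries. The median log2 fold change of the list was -0.23. The part of these tissues in the values of the precursors was not tested.

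**Figure D3:**
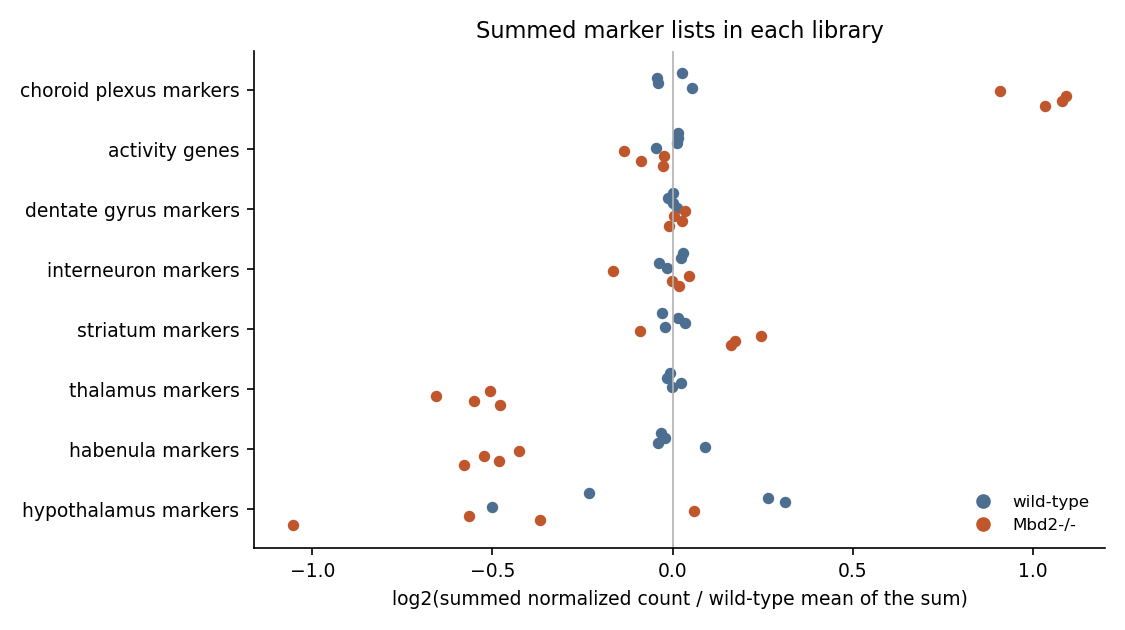
Summed normalized counts of 8 marker lists in each library, as log2 of the ratio to the wild-type mean of that list (horizontal axis). Choroid plexus markers lie above and thalamus and habenula markers below the wild-type libraries in every Mbd2-/- library, while the hypothalamus list, at 10.2 to 26.3 summed normalized counts, overlaps between the genotypes.

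Lists of neuron types within the hippocampus were also read. Of 14 interneuron markers, 5 were higher and 5 lower, against 12.0% and 10.0% of all tested genes, and their sums overlapped (15487 to 16229 in wild-type, 14172 to 16420 in Mbd2-/-). The 5 higher ones included the peptide genes Npy (log2 fold change 0.72), Sst (0.40), Vip (0.29) and Cck (0.25), as well as Pvalb (0.37). The 5 lower ones were Calb2 (-0.56), Nos1, Reln, Gad2 and Gad1 (-0.28 to -0.21). The higher genes have short transcripts (566 to 1527 bases), and 4 of the lower ones have long transcripts (3601 to 11702 bases), with Calb2 at 1430 bases. With the length trend removed, 1 interneuron marker was higher (Npy, at 0.37) and 4 were lower (Calb2, Slc32a1, Gad1 and Gad2), against 8.05% and 6.77% of all genes in that fit. There Sst (0.06), Vip (0.13), Cck (-0.04) and Pvalb (0.11) were not called. Of 10 pyramidal markers, 3 were higher and 2 lower, and most of their sum (77154 to 79288 against 90209 to 94050) came from Camk2a. Activity-dependent genes had 2 of 15 genes lower (Egr1 at -0.33 and Nr4a2 at -0.29) and 0 higher, near the 10.0% of all tested genes called lower. The sums of these genes were 9068 to 9458 in wild-type and 8517 to 9197 in Mbd2-/- libraries. Removal of the length trend left 4 of them lower, with Egr4 and Nptx2 added, where 6.77% of all genes in that fit were lower.

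Between genes, levels were compared per kilobase of the longest transcript. In wild-type hippocampus, Penk was the highest precursor, with 215.9 ± 12.2 normalized counts per kb. Tac2 (97.3 ± 13.6) and Pdyn (84.6 ± 5.76) followed, and their ranges overlapped. Tac1 (54.5 ± 8.42), Nts (48.3 ± 11.5), Cartpt (35.4 ± 4.28) and Adcyap1 (30.7 ± 4.14) came next, and each of these neighbours overlapped in range. Pomc (14.3 ± 2.95), Avp (7.33 ± 0.702) and Oxt (0.598 ± 0.71) were lowest, and their ranges did not overlap. Among 18102 genes with a length, the level of Penk was at percentile 77.7 and that of Oxt at percentile 7.1. In Mbd2-/- hippocampus, Pdyn (109.4 ± 9.5) and Tac1 (74.9 ± 6.1) had higher means than Tac2 (73.5 ± 15.1), and the ranges of Tac1 and Tac2 overlapped. Cartpt, at 17.7 ± 5.89, had a lower mean than Adcyap1 and Pomc there, and its range overlapped those of both.

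**Figure D4:**
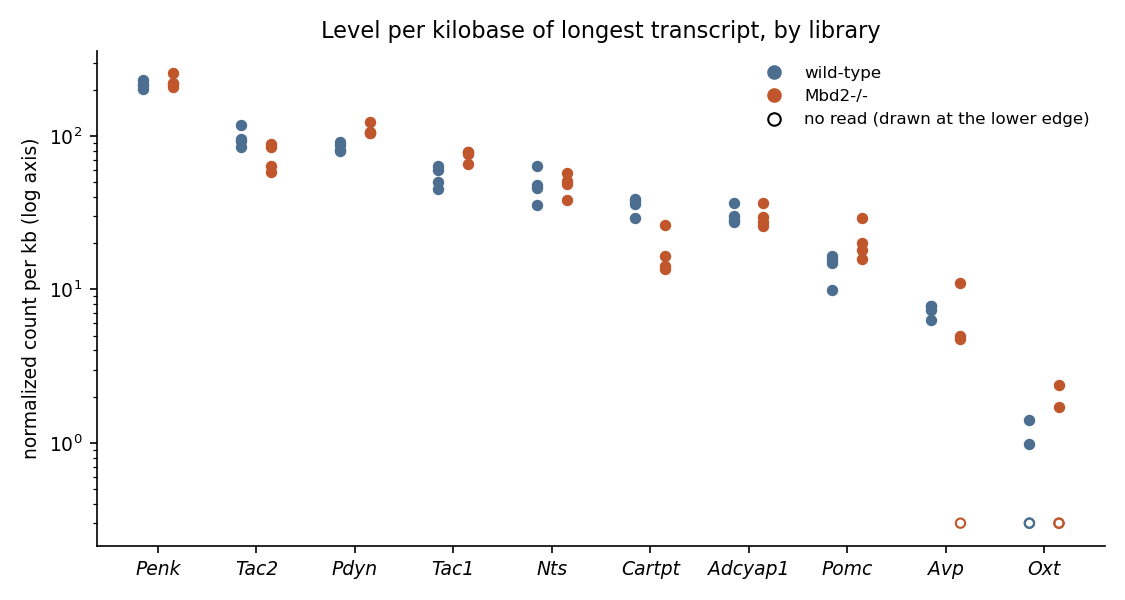
Normalized counts per kilobase of the longest transcript in each library (vertical log axis), with genes in the wild-type order. Penk lies above the other precursors in both genotypes, and Avp and Oxt have libraries with no read, which are drawn as open points at the lower edge.

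The receptors of these peptides were read next. Of 21 listed receptor genes 20 were in the table and 13 were tested, 5 of which fell in Mbd2-/- hippocampus and 0 rose, with a median log2 fold change of -0.24. Over all tested genes 22.0% were called and 10.0% were lower, and thalamus (8 of 9) and habenula markers (5 of 7) were lower too, whose part in these values was not tested. The genes that fell were the kappa receptor Oprk1, the mu receptor Oprm1, the substance P receptor Tacr1, the neurokinin B receptor Tacr3 and Sort1, the sortilin that also binds neurotensin. All 5 remained called with the length trend removed, where the log2 fold change of Sort1 shrank from -0.26 to -0.15 (limma, adjusted p = 0.0214). Of all genes in that fit 6.77% were lower.

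For the opioid receptors, Oprk1 had normalized counts of 10.49, 20.3, 14.6 and 27.6 in wild-type and 6.39, 4.57, 11.2 and 7.69 in Mbd2-/- libraries. Only Mbd2-/- replicate 3 reached into the wild-type range. The log2 fold change was -1.16 (limma, adjusted p = 0.021), and the call was lost in 4 of 8 fits that left out a library (wild-type replicate 2 or 4, Mbd2-/- replicate 1 or 2), with adjusted p values from 0.0549 to 0.0954. Oprm1 had 39, 41.4, 34.6 and 36.7 in wild-type and 25.5, 28.4, 23.9 and 16.3 in Mbd2-/- libraries, without overlap. Its log2 fold change was -0.69 (limma, adjusted p = 0.0186), and only leaving out wild-type replicate 2 ended the call (adjusted p = 0.0566). The delta receptor gene Oprd1, a main receptor of enkephalin, was not called, at 167.5 ± 6.63 and 143.6 ± 15.4 (log2 fold change -0.23, adjusted p = 0.0964). Oprm1 is also strongly expressed in the medial habenula, whose markers were lower as given above, and their part in the values of Oprm1 was not tested.

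For the tachykinin receptors, Tacr1 had normalized counts of 34.5, 32.4, 39.2 and 30.8 in wild-type and 15.3, 21, 14.4 and 23.1 in Mbd2-/- libraries. The genotypes were well separated, and the log2 fold change was -0.88 (limma, adjusted p = 0.00678). Tacr3 had 27, 24.8, 17.3 and 23.9 in wild-type and 10.2, 11, 14.4 and 12.5 in Mbd2-/- libraries. Again no library overlapped, and the log2 fold change was -0.89 (limma, adjusted p = 0.013). Both were called in all 11 alternatives that tested them and in all 8 fits without a library. A single read equals 1.28, 0.915, 1.59 and 0.961 normalized counts in Mbd2-/- replicates 1 to 4. The values of Tacr1, Tacr3 and Oprk1 in these libraries therefore rest on few reads. Whether precursor and receptor changes are related across libraries was not tested.

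Of the other receptors, Sort1 was the most abundant and fell from 9819 ± 55.4 to 8197 ± 138 (log2 fold change -0.26, limma, adjusted p = 0.000466). The PACAP receptor Adcyap1r1 was 3217 ± 119 and 3007 ± 153 (log2 fold change -0.10, adjusted p = 0.182). The neurotensin receptors Ntsr1 (-0.44, adjusted p = 0.0825) and Ntsr2 (0.15, adjusted p = 0.224) were not called in limma. Vipr1, Vipr2, Mc4r and Oxtr were not called either, and 7 receptors, among them all 3 vasopressin receptors, were under the filter.

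Precursors become active peptides only after cleavage and storage, and the genes of these steps were listed apart. Of 10 processing enzymes and their helpers, 2 were higher and 3 lower, where 12.0% of all tested genes were higher and 10.0% lower. After removal of the length trend 0 were higher and 3 lower, Pcsk1, Pcsk2 and the aminopeptidase Rnpep. In that fit 8.05% of all genes were higher and 6.77% lower. The prohormone convertases Pcsk1 (280.3 ± 9.49 to 210.2 ± 12.5, log2 fold change -0.41) and Pcsk2 (3175 ± 73.4 to 2694 ± 71.3, -0.24) both fell (limma, adjusted p = 0.00141 and 0.0023), in all 12 alternatives and in all 8 fits without a library. Scg5, the chaperone of PCSK2, was 1483 ± 16.8 and 1678 ± 117 (0.17, limma, adjusted p = 0.0346), and carboxypeptidase E, Cpe, was 28656 ± 610 and 31242 ± 845 (0.12, adjusted p = 0.0308). The carboxypeptidase Cpd had a log2 fold change of -0.19 (adjusted p = 0.0359). The calls of Scg5, Cpe and Cpd ended with the length trend removed, where Scg5 was at -0.04, Cpe at 0.04 and Cpd at -0.07, and held in 1, 2 and 1 of the 8 fits without a library.

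Of 10 granule proteins, 1 was higher and 5 lower, against the same 12.0% and 10.0% of all tested genes. The chromogranins Chga (1303 ± 87.9 to 1021 ± 99.5, log2 fold change -0.36) and Chgb (-0.20), the granule membrane proteins Ptprn (-0.26) and Ptprn2 (-0.30) and the granule synaptotagmin Syt4 (-0.30) fell. Scg3, which gathers granins at the granule membrane, rose from 2730 ± 146 to 3340 ± 270 (0.29, limma, adjusted p = 0.00355). With the length trend removed all 6 kept their call and direction, and Vgf was called as well (-0.25, limma, adjusted p = 0.0118). Of all genes in that fit 8.05% were higher and 6.77% lower. Without trend and robust moderation the calls of Chgb (adjusted p = 0.0722) and Ptprn (0.0507) ended, and that of Chgb also ended without wild-type replicate 3 (0.0678). Vgf missed the threshold in limma on all libraries (-0.21, adjusted p = 0.0567), and Scg2, Cadps and Cadps2 were not called.

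Among 9 peptidases that break down peptides outside the cell or in the cytosol, Ace was the only one called, where 22.0% of all tested genes were called. It rose from 418.4 ± 4.89 to 658.5 ± 60.9 (log2 fold change 0.65, limma, adjusted p = 3.3e-05). Ace is also made by the choroid plexus, all 14 markers of which were higher, and their part in the values of Ace was not tested. Of 38 other precursor genes 32 were in the table and 10 were tested. Apln, which encodes apelin, was the only one called, against the same 22.0% of all tested genes. It went from 381.6 ± 9.27 to 436.6 ± 23.6 (log2 fold change 0.19, limma, adjusted p = 0.0454). The call held in 6 of 12 alternatives and in 1 of 8 fits without a library. With the length trend removed, Gal, the galanin gene, was called lower (log2 fold change -1.02, limma, adjusted p = 0.0362) in place of Apln. There Apln was still at 0.19 and just missed the threshold (limma, adjusted p = 0.051), and 14.8% of all genes were called. The median log2 fold change of these 10 genes was 0.035.

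**Figure D5:**
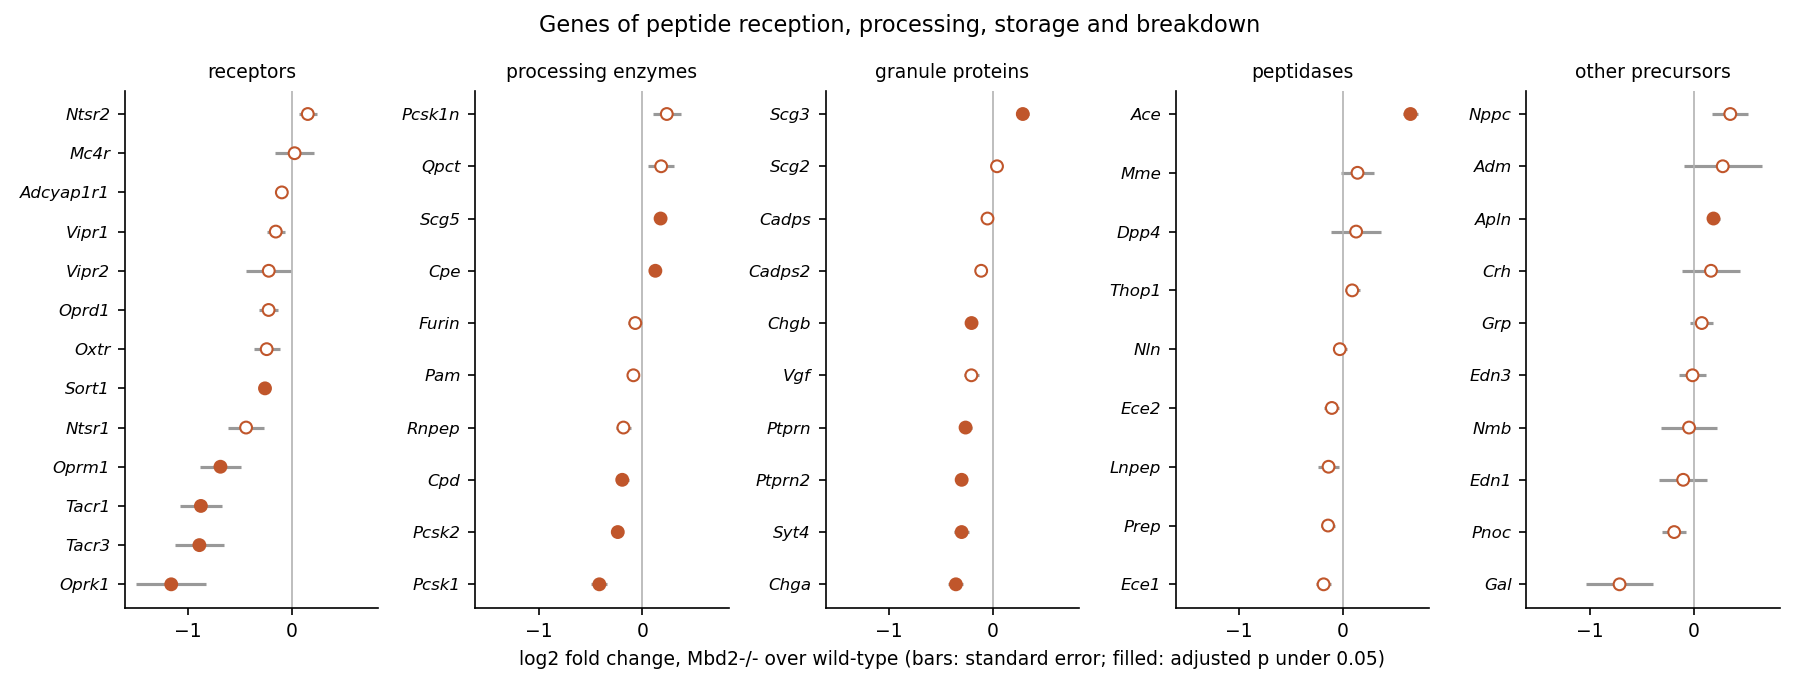
Log2 fold changes (horizontal axis, Mbd2-/- over wild-type) with standard errors for the tested genes of 5 lists, filled where the limma adjusted p was under 0.05. Of the 13 receptors 5 are filled, all below 0, the 20 processing and granule genes have 3 above and 8 below 0, and Ace and Apln are the only filled genes of the last 2 lists.

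For the 6 members with a mean of at least 50, deviations from the genotype means were compared with those of 12059 genes over the 8 libraries, as a description only. The gene most like Penk was Rgs10 (Pearson's r = 0.97), for Pdyn it was Galnt6 (0.98), for Tac1 Zfp9 (0.97), for Tac2 Gabrd (0.99), for Adcyap1 Slc38a1 (0.98) and for Nts BC005537 (0.97). Each of these is the highest of 12059 values and carries no test. Between the members, r ran from -0.82 (Pdyn and Nts) to 0.60 (Penk and Tac1), and these values share library depth and composition.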

How the data were processed

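Duplicates were discarded by the authors before alignment with STAR to mm9, and DESeq2 was their test of genotype. Versions and the tool that counted reads on genes are not given in the sources used here. The signal deposited by the authors is a normalized count, namely reads on a gene over the DESeq2 size factor of its library. The authors' own fold changes, statistics and p-values in the table were not used. Dividing by the value of 1 read gave whole reads for 100% of values (tolerance 0.01), and no per-sample column was left unmatched (0). The p-values measure the spread between pools of mice.

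Genes with a mean of at least 10 were tested with limma 3.58.1 (trend, robust) in R 4.3.3 on log2(normalized count + 1), with Benjamini-Hochberg adjustment, and single members also with an exact two-sided permutation test over 70 splits. The step was tested on simulated data. Alternatives were DESeq2 1.42.0, edgeR 4.0.16 and limma-voom on recovered reads, TMM and upper-quartile scaling, pseudocounts of 0.5 and 5, no filter or a mean of at least 50, no trend or robust moderation, a replicate block, a lowess length trend removed (span 0.3) and leaving out each library. Replicate numbers did not pair the libraries. Transcript lengths and positions came from GENCODE vM1 on mm9, matched for 94.3% of symbols. The members and lists were chosen with earlier results of these data known. Named are all members, the called and the 3 most abundant genes of a list, some of which are left out, and the 3 genes most like a member, of which the first is given. Chrnb3, Chrnb4, Gal, Vgf, Rnpep, Egr4, Nptx2 and other genes that were not called were named after their values were seen.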

Additional observations from a re-analysis of the deposited data

Results flagged for a closer look

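A library far from the others of its genotype was sought with Dixon's test in 54 groups of 4 libraries, and 3 groups had one, about as many as the 1 in 20 that chance gives. Pdyn was 294.9 in Mbd2-/- replicate 3, against 247.7 to 252.7 in the other 3 Mbd2-/- libraries. Ptprn was 5733 in wild-type replicate 3, against 5340 to 5386 in the others. Ace was 567.9 in Mbd2-/- replicate 4, against 678.1 to 694.9 in the others. Among the Mbd2-/- libraries this was also the one with the weakest trend over transcript length (rho -0.10).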

How the results depend on the processing

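The alternatives are those listed above, and the length trend was removed because of the trend seen in the Mbd2-/- libraries. Pdyn and Cartpt kept their direction and call in every alternative that tested them. Deviations of same-numbered libraries correlated at -0.10, -0.06, 0.07 and 0.04, and 3 of 8 libraries correlated best with their own number. The replicate block gave 3 called members, with Pdyn at 0.37 and Tac2 at an adjusted p of 0.0545 in limma, and of the named calls it ended those of Cpe (0.0549) and Apln (0.069). On the recovered reads DESeq2 called 2970 genes, edgeR 3231 and limma-voom 3159, against 3185 in limma, and DESeq2 gave Oprk1 no adjusted p. The sign turned for Penk (-0.12 with the length trend removed), Nts (-0.20 likewise), Scg5 (-0.041 likewise) and Adcyap1 (0.0055 with edgeR and 0.012 with limma-voom). With 1 library left out, log2 fold changes ran from -0.0063 to 0.092 for Penk, from -0.11 to 0.16 for Nts and from -0.14 to 0.046 for Adcyap1. A mean of at least 50 left 1 receptor called of 5, since the others are below it. Processing and granule genes called fell from 11 to 6 without trend and robust moderation. The count of other precursors called was 0 with DESeq2, upper-quartile scaling, no filter, no trend and robust moderation or the replicate block. Leaving out a library gave 2 to 4 called members, 3 to 7 receptors, 7 to 11 processing and granule genes, 1 to 3 peptidases and 0 to 1 other precursors. All genes called fell from 3185 to 2103 with the length trend removed and ran from 2073 (without wild-type replicate 3) to 5156 (without Mbd2-/- replicate 4). The causes were not tested. Cartpt and Pomc rest on few reads, at most 62 and 30 in a library, and the part of depth in their values was not tested.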
